A study of Rattus norvegicus with 8 samples.

Results

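The receptors for acetylcholine, serotonin, dopamine, noradrenaline and adrenaline, and histamine were described in whole rat brain on 8 oligonucleotide arrays. Members were all probe sets with a single gene symbol starting with Chrm, Chrn, Htr, Drd, Adra, Adrb or Hrh, other than Adrbk kinases and Htra proteases. They numbered 48 genes of 4736 genes named on the array, with 68 of its 8740 non-control probe sets. Control rats (3 arrays) breathed the volatile anaesthetic isoflurane for 3 min. Exposed rats breathed 2% isoflurane for 1 hr (2 arrays) or 2 hr (3 arrays). Every rat was intubated, and the control rats too had received isoflurane, so the series holds no rat without anaesthetic. Perfusion with ice-cold saline is stated for the controls only, and the labels state no strain, sex or age. The labels give no animal numbers, so p-values measure the spread between these samples, which may be technical, and the number of arrays limits the precision.

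These receptors carry the signals of the ascending systems that regulate wakefulness, attention and mood. Nicotinic receptors and the 5-HT3 receptor are channels built from 5 subunits around a pore, which open when the transmitter binds. Muscarinic, dopamine, adrenergic, histamine and the remaining serotonin receptors act through G proteins. Those coupled to Gq release calcium from internal stores, those coupled to Gi lower cyclic AMP, and those coupled to Gs raise it.

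The values are linear intensities that the authors had scaled, with a 2% trimmed mean of 150.165 to 150.325 on every array. An intensity of 9.1, the 20th percentile of all values, was used as a floor for background, and differences in intensity between probe sets, which also reflect the probes, were not read as differences in RNA level. All 5 neuronal, 4 astrocyte and 4 oligodendrocyte markers on the array were above the floor on all 8 arrays. So were all 5 skeletal muscle and 3 choroid plexus markers and 64.4% of all probe sets, so passing the floor does not identify the tissue. Dissection-linked markers were uneven. Summed striatal markers (Penk, Tac1 and Adora2a) read 441.5 to 4132.3 on the control arrays, 691.5 to 1101.7 on the 1 hr arrays and 450.9 to 1637.7 on the 2 hr arrays, the highest being control replicate 3. Summed pituitary markers read 232.6 to 242.6 on the control arrays, 281.4 to 498.2 on the 1 hr arrays and 227.5 to 849.7 on the 2 hr arrays. Neuronal marker sums were lowest on control replicate 3, at 1023.9.

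Of the 68 probe sets, 41 (60.3%) were above the floor on all 8 arrays, against 64.4% of all probe sets. They covered 34 of the 48 genes. Only 3 receptor probe sets exceeded every one of the 15 antisense control probe sets on all 8 arrays, namely Chrm3 (M16407_at), Chrng (X74834cds_s_at) and Drd3 (X53944_at), and 36 did so on no array. The test required a reading above the floor on at least 2 arrays, which 62 receptor probe sets met. The 6 that did not were Htr1f, 1 probe set each of Htr7 (U68491_at) and Drd3 (A17753cds_s_at), all at or below the floor on all 8 arrays, and Hrh1, Htr2c (U35315_at) and Htr4 (AJ011370_at), above it on 1 array each.

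The share of receptor readings above the floor was 83.3% ± 5.57 in controls (SD, n = 3), 87.5% ± 5.20 at 1 hr (SD, n = 2) and 80.4% ± 3.70 at 2 hr (SD, n = 3). Per array, 54, 55 and 61 of the 68 were above it in controls, 62 and 57 at 1 hr and 52, 55 and 57 at 2 hr, so the exposures overlapped or touched, and no test was made. The shares over all probe sets were 79.3%, 82.1% and 79.3% in the same order of exposure. The muscarinic share was 100% in controls, 94.4% at 1 hr and 96.3% at 2 hr. The adrenergic share was 97.0%, 100% and 97.0% in that order, and the nicotinic share was 92.6%, 91.7% and 90.7%. The serotonin share was 68.3% in controls, 77.5% at 1 hr and 65.0% at 2 hr, over 20 probe sets of 13 genes, and differences between transmitters were not tested. Dopamine receptors gave 70.8%, 81.2% and 66.7%, and the 2 histamine probe sets 50%, 75% and 33.3%.

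**Figure D1:**
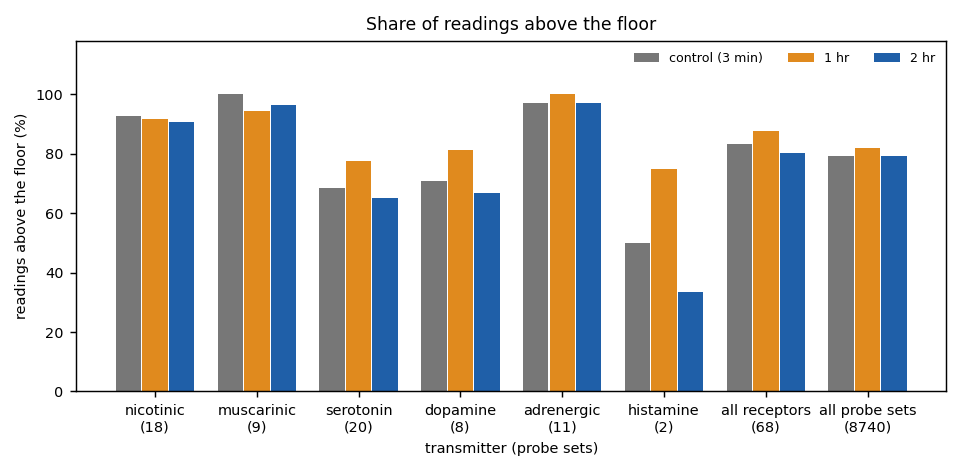
Share of array readings above the floor of 9.1, in percent, for each transmitter (number of probe sets in brackets), for all receptors and for all probe sets, with 1 bar for each exposure. The muscarinic and adrenergic bars all stand above 94%, and the serotonin bars lie between 65.0% and 77.5%.

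None of the 62 receptor probe sets differed between exposures after adjustment over all 7770 probe sets tested. This held for 2 hr against control, 1 hr against control and 2 hr against 1 hr (limma, Benjamini-Hochberg, two-sided, smallest adjusted p = 1 in each), where 0% of all probe sets passed as well. In these bulk samples, fewer cells of a type and less RNA per cell cannot be told apart. At an unadjusted p under 0.05, limma gave 0 receptors for 2 hr against control, where the share over all probe sets was 1.79%. It gave 1 for 1 hr against control (Htr2a), against 2.68% of all probe sets, and 0 for 2 hr against 1 hr, against 2.77% of all. Standard errors of the 2 hr change ran from 0.239 to 0.899 on the log2 scale. Changes larger than their standard error did not pass either, such as Htr4 (U20907_at) at -1.39 (SE 0.649). Differences of that size and smaller could thus be missed with these arrays.

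At 2 hr the receptors divided evenly around the control level. Of the 62, 31 read higher and 31 lower than control, against 52.1% higher over all probe sets, and the median log2 change was -0.01, against 0.02 for all. By transmitter, 13 of 18 nicotinic probe sets read higher (median log2 change 0.09) and 11 of 16 serotonin probe sets read lower (median -0.15). Muscarinic probe sets gave 3 higher and 6 lower, dopamine 3 and 4, adrenergic 6 and 5. The 2 hr and control arrays did not overlap for 1 probe set, which read lower (Htr4, U20907_at), against 2.55% of all probe sets, and for none that read higher, against 2.9% of all.

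At 1 hr, 41 receptor probe sets read higher than control and 21 lower, against 55.8% higher over all, with a median log2 change of 0.20 against 0.05 for all. The balance rested on 1 array. 1 hr replicate 1 held the highest reading of the 8 arrays for 27 of the 68 probe sets (39.7%), against 23.8% of all probe sets. Without it, 27 receptors read higher and 35 lower, with a median of -0.10. The nicotinic count was 14 higher and 4 lower with both 1 hr arrays, and 5 higher and 13 lower without replicate 1. The 1 hr and control arrays did not overlap for 5 probe sets that read higher, against 7.54% of all, and for 2 that read lower, against 5.11% of all. Those higher were Htr2a (L31546cds_at), Chrnb3, Drd1 (M35077_s_at), Chrna4 and Chrm2 (AB017655_s_at), and those lower were Chrm3 (AB017656_s_at) and Chrm1 (AJ006522mRNA_at).

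Between the exposure lengths, 21 receptor probe sets read higher at 2 hr than at 1 hr and 41 lower, against 52.6% lower over all, with a median of -0.16 against -0.03 for all. Serotonin receptors gave 2 higher and 14 lower, with a median log2 change of -0.34. Without 1 hr replicate 1, the serotonin counts were 6 higher and 10 lower (median -0.06), and those of all receptors 29 and 33 (median -0.03). The 2 hr and 1 hr arrays did not overlap for 1 probe set that read higher (Adra1a), against 5.98% of all. They did not overlap for 5 that read lower, against 7.82% of all, namely Adra2a (M62372cds_s_at), Htr1a, Htr4 (AJ011370_g_at), Htr3a (U01227_s_at) and Chrna4. These comparisons share arrays: both exposures were set against the same controls, and the 2 hr and 1 hr arrays each enter 2 of the 3.

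Receptors were also set against 2 properties of the arrays, and separated them at about the share of all probe sets or below it. The 3 arrays with a top value above 20000 were 1 of each exposure, control replicate 3, 1 hr replicate 1 and 2 hr replicate 3. There 5 receptor probe sets (Chrna2, Htr2c, Adrb3, Chrna9 and Chrnd) lay above all other 5 arrays, against 7.98% of all probe sets. Chrm1 (M16406cds_s_at) and Chrm4 (M16409_at) lay below them, against 6.95% of all. Chrna9 gave 27.8 (control), 33.1 (1 hr) and 30 (2 hr) on these arrays, and at most 9.1 elsewhere. Arrays with a 5S ribosomal RNA control under 40 were 2 hr replicate 1 and control replicates 1 and 2. They lay above the other 5 for 3 receptor probe sets, Chrm3 (M16407_at), Adra1d (M60654_at) and Adra1b, against 4.92% of all. They lay below for 3, Chrnb3, Drd1 (M35077_s_at) and Htr2b, against 4.94% of all. The other tested probe sets of Chrm3, Adra1d and Drd1 did not separate these arrays. These array properties and their part in the comparisons were tested only as the alternatives given in the closing section.

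**Figure D2:**
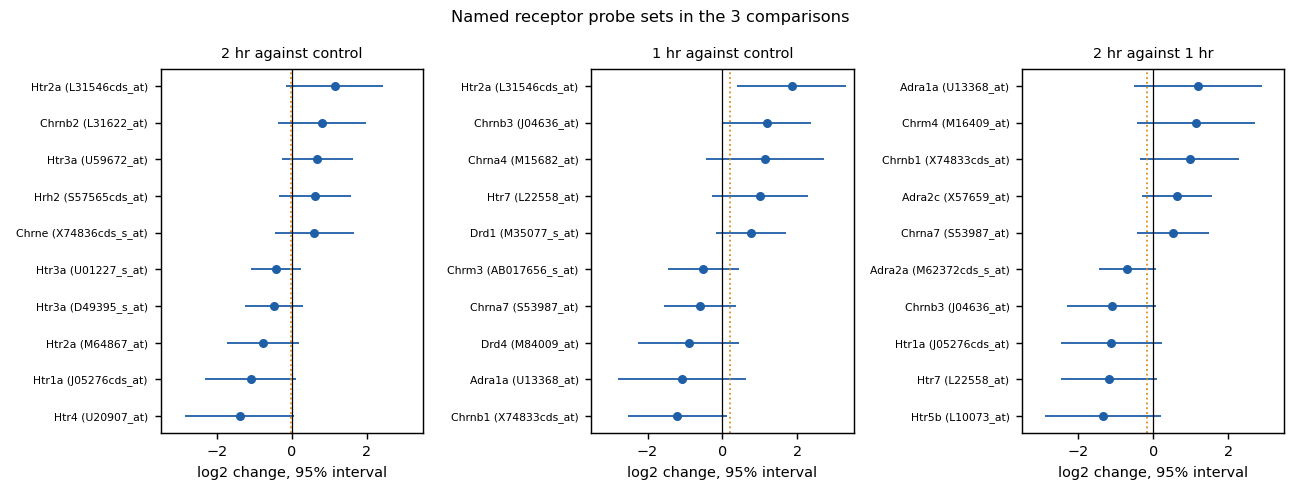
Log2 change with its 95% interval (limma, x axis) for the 5 receptor probe sets of smallest unadjusted p in each direction (y axis) in each comparison, with the dotted line at the median of the 62 receptors tested. All intervals but that of Htr2a at 1 hr cross 0, and none of the changes passed after adjustment over all probe sets.

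Among the serotonin receptors, Htr2a had the largest log2 change of the receptors at 1 hr against control. It encodes the Gq-coupled 5-HT2A receptor of cortical pyramidal neurons, the target of psychedelic drugs. Its brighter probe set (L31546cds_at) read 7.6, 10.8 and 22.3 on the control arrays, 61 and 35.7 on the 1 hr arrays and 36.3, 13.6 and 48.5 on the 2 hr arrays. Both 1 hr arrays lay above every control, while the 2 hr arrays overlapped the controls. The log2 change was 1.85 at 1 hr (SE 0.647, limma unadjusted p = 0.0179, adjusted p = 1) and 1.15 at 2 hr (SE 0.579, unadjusted p = 0.0762). With a floor at the 40th percentile (27.9), which put every control reading under the floor, the log2 changes were 0.74 at 1 hr and 0.39 at 2 hr. The other Htr2a probe set (M64867_at) read 14.2, 26.4 and 23.5 in controls, 16.3 and 19 at 1 hr and 21.6, 8.4 and 8 at 2 hr. That probe set differed by -0.77 at 2 hr against control (SE 0.433), so the probe sets of this gene disagreed in direction.

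Htr4 and Htr1a had the lowest log2 changes at 2 hr against control, -1.39 (SE 0.649, limma unadjusted p = 0.0587) and -1.10 (SE 0.540, limma unadjusted p = 0.0709). Htr4 encodes a Gs-coupled receptor abundant in the basal ganglia and hippocampus, and its probe set U20907_at read 6.1, 21.4 and 12.4 at 2 hr, against 44.6, 32 and 30.5 in controls. All 2 hr arrays lay below all controls, with mean log2 intensities of 3.75 ± 0.62 and 5.14 ± 0.30 (SD, n = 3 each). The 1 hr arrays read 71.9 and 11.8, spanning both groups. Its probe set AJ011370_g_at read 6.4, 7.8 and 7 at 2 hr and 8.2, 5.4 and 9.6 in controls, near or under the floor in both. With a floor at the 40th percentile (27.9) the log2 change of U20907_at was -0.33.

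Htr1a encodes the Gi-coupled autoreceptor of raphe neurons, which is also found on hippocampal cells. Its probe set (J05276cds_at) read 10.1, 9.6 and 10.5 at 2 hr, just above the floor, against 6.8, 26.6 and 41.2 in controls. Controls were split, with replicate 1 under the floor and below all 2 hr arrays. Its log2 change at 2 hr was -1.72 without control replicate 1 and -0.63 without control replicate 3, and -0.19 with the higher floor. At 1 hr it read 15.5 and 30.8, above all 2 hr arrays, with a log2 change of -1.12 for 2 hr against 1 hr (SE 0.604).

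Htr3a, the subunit of the serotonin-gated channel, had 3 probe sets. U01227_s_at read 116.6, 97.9 and 111.9 in controls, 107 and 101.7 at 1 hr and 62.1, 101 and 86.9 at 2 hr. D49395_s_at read 19, 12 and 20.4 in controls, 12.8 and 13.4 at 1 hr and 10.5, 17.2 and 9.7 at 2 hr. Their log2 changes at 2 hr were -0.41 (SE 0.298) and -0.47 (SE 0.346). U59672_at went the other way, at 29.9, 43.7 and 21.6 at 2 hr against 24.1, 18.9 and 14.9 in controls (0.69, SE 0.425).

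Htr7 and Htr5b were high on a single array. Htr7, a Gs-coupled receptor of thalamus and suprachiasmatic nucleus, had its highest reading, 47.4, on 1 hr replicate 1, and the other 7 arrays gave 3 to 16.5 (L22558_at). Its log2 change at 1 hr was 1.01 (SE 0.570), and -0.08 without that array. Htr5b, which is a pseudogene in humans, read 84.3 on 1 hr replicate 1, 30 on 1 hr replicate 2, and 8.8, 41.3 and 20.8 at 2 hr, with 28.7, 23 and 36 in controls. For 2 hr against 1 hr its log2 change was -1.34 (SE 0.696).

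Spread was compared among serotonin genes whose brightest probe set was above the floor on all 8 arrays. By that probe set Htr2b, a Gq-coupled receptor known from heart valves, had the largest spread. Htr1d, a Gi-coupled autoreceptor of nerve terminals, had the smallest. Htr2b read 29.4, 31.2 and 58.9 in controls, 67 and 33.5 at 1 hr and 28.7, 46.6 and 41.1 at 2 hr. Htr1d read 55.1, 42.4 and 71.3 in controls, 54.4 and 67 at 1 hr and 43.1, 62.9 and 55.1 at 2 hr, so its groups overlapped throughout. Htr5a and Htr6 were also above the floor on every array, at 34.2 to 89.2 and 25.8 to 59.1. Htr1b, the terminal autoreceptor, crossed the floor between arrays, at 3.8 to 16.4. Htr2c, the Gq-coupled receptor of choroid plexus and neurons, read 11.3, 8.9 and 45.9 in controls, 24.9 and 8.8 at 1 hr and 24.8, 16.9 and 35.9 at 2 hr (M21410_s_at). The sum of 3 choroid plexus markers (Ttr, Igf2 and Igfbp2) was 661.4 to 1028.5 in controls, 740.5 to 3749.4 at 1 hr and 724.4 to 1786.2 at 2 hr. On its highest array, 1 hr replicate 2, Htr2c was under the floor, as it was on control replicate 2.

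**Figure D3:**
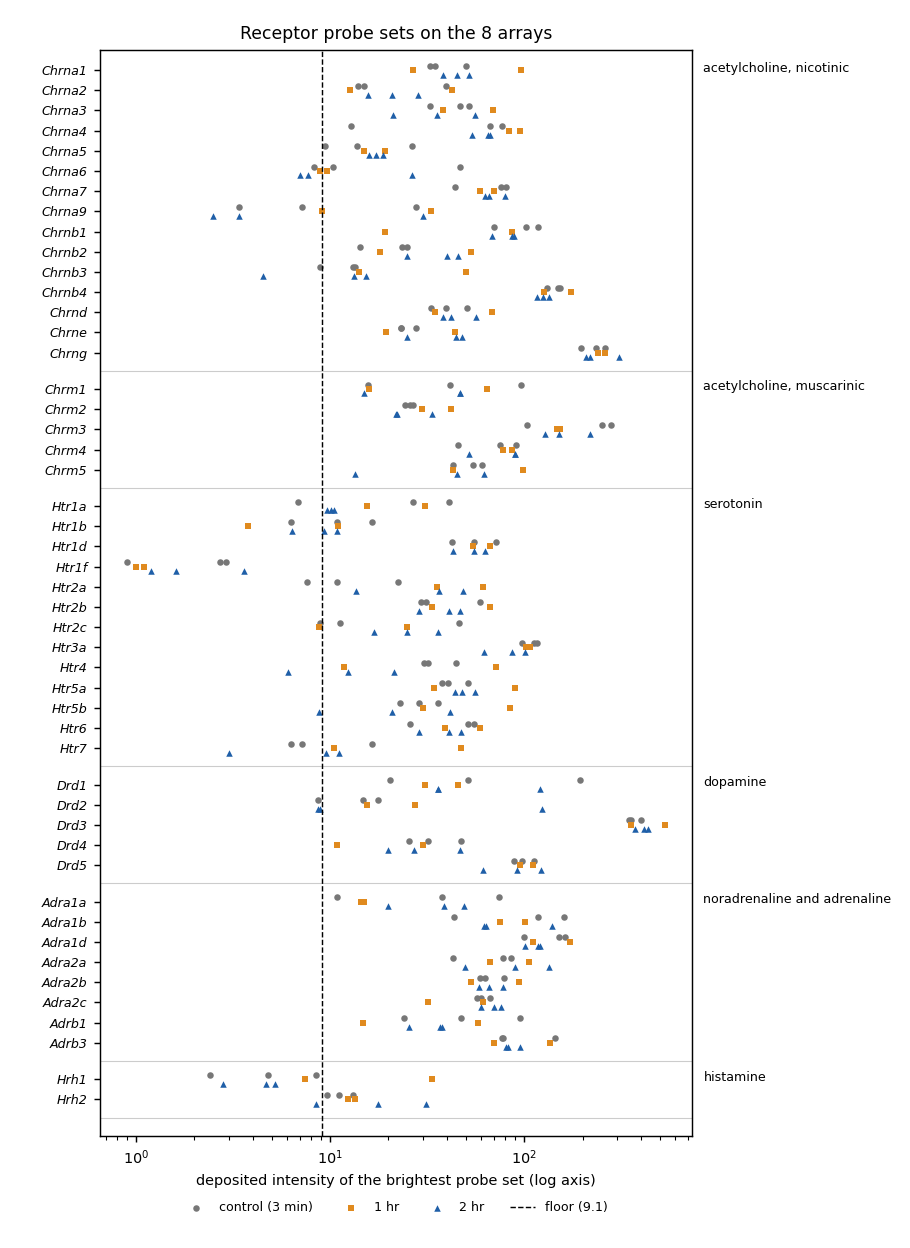
Deposited intensity (log axis) of the brightest probe set of each of the 48 receptor genes on the 8 arrays, with control, 1 hr and 2 hr arrays as separate symbols and the floor as a dashed line. Points of the exposures interleave for most genes, and single arrays stand apart for Chrnb3, Htr7 and Drd2.

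The nicotinic genes covered 15 subunits with 18 probe sets, of which 14 were above the floor on all 8 arrays. Chrna4 and Chrnb2 together form the most common high-affinity nicotinic receptor of the brain. Chrna4 (M15682_at) read 77.1, 67 and 12.8 in controls, 94.9 and 83.9 at 1 hr and 66.8, 65.1 and 53.7 at 2 hr. The 1 hr arrays lay above all others, but the log2 change of 1.14 against control (SE 0.704) was 0.31 without control replicate 3, the array of low neuronal markers. Chrnb2 (L31622_at) read 45.6, 24.8 and 39.9 at 2 hr and 23.4, 25 and 14.2 in controls (0.81, SE 0.520), with 18.1 and 53.5 at 1 hr.

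Chrna7 forms the homomeric receptor that binds alpha-bungarotoxin. Its brightest probe set (L31619_at) read 43.8 to 80.2 over the arrays. The dimmer S53987_at read 15.6 and 8.5 at 1 hr, against 17.5, 25 and 13.5 in controls, with 14.6, 22.6 and 15.4 at 2 hr. Its log2 changes were -0.60 for 1 hr against control and 0.53 for 2 hr against 1 hr (SE 0.427 each). The third probe set, L31619_g_at, went the other way in both, with log2 changes of 1.00 and -0.54 (SE 0.643 each). It read 67.6 and 42.6 at 1 hr, against 50.9, 33.6 and 11.4 in controls, with 43.1, 28.8 and 40.3 at 2 hr.

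Chrnb3 and Chrna6 form receptors of dopaminergic and visual neurons. Chrnb3 (J04636_at) read 50.2 and 14.1 at 1 hr, against 8.9, 13.1 and 13.5 in controls, and 4.5, 13.3 and 15.3 at 2 hr. The log2 change at 1 hr was 1.18 (SE 0.529), and 0.27 without 1 hr replicate 1. Chrna6 stood out on control replicate 3 (46.7) and 2 hr replicate 3 (26.4), and read 7 to 10.3 on the others.

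Chrna3, Chrna5 and Chrnb4 form the ganglionic receptor and the receptor of the habenula. Chrnb4 (U42976_at) had the smallest spread of the nicotinic genes, at 152, 131.7 and 148.8 in controls, 174.9 and 126.3 at 1 hr and 124.3, 134.9 and 115.8 at 2 hr. Chrna3 read 21.2 to 69.4 and Chrna5 9.4 to 26.4. Chrna2, a subunit of the interpeduncular nucleus, read 12.6 to 42.7, and Chrna9, known from cochlear hair cells, read 2.5 to 33.1 and was above the floor on 3 arrays.

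All 5 subunits of the muscle endplate receptor were above the floor on all 8 arrays. Skeletal muscle markers were above it as well, with sums of 271 to 304.8 in controls, 253.2 to 279.3 at 1 hr and 218.1 to 352.8 at 2 hr, and their part in these readings was not tested. Chrng, the fetal gamma subunit, read 234.9, 195.9 and 262.2 in controls, 238.9 and 259.8 at 1 hr and 208.9, 306.6 and 219.3 at 2 hr. Chrnb1 (X74833cds_at) read 87 and 19.3 at 1 hr, against 102.5, 69.8 and 118.1 in controls, with 88.1, 68 and 86.5 at 2 hr. Its log2 change at 1 hr was -1.21 (SE 0.589), and -0.12 without 1 hr replicate 2. Chrne, the adult epsilon subunit, read 24.8, 47.8 and 44.5 at 2 hr and 27.8, 23.2 and 23.2 in controls (0.61, SE 0.468). Chrna1 read 26.7 to 96 and Chrnd 33.3 to 68.1.

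The muscarinic receptors gave 9 probe sets for 5 genes, with 7 above the floor on every array. With each gene read by its brightest probe set, Chrm1, the Gq-coupled receptor of cortex and hippocampus, had the largest spread of the family. Its probe set M16406cds_s_at read 96.8, 41.5 and 15.7 in controls, 15.9 and 64.5 at 1 hr and 46.5, 46.6 and 15 at 2 hr, with low and high arrays in each exposure. The other Chrm1 probe set (AJ006522mRNA_at) was steadier, at 41.4, 35 and 35.8 in controls, 33.1 and 31.4 at 1 hr and 30.4, 38.5 and 19.6 at 2 hr. Chrm2, the Gi-coupled autoreceptor, had the smallest spread by its brightest probe set (AB017655_s_at). It read 26.8, 25.9 and 24.4 in controls, 42 and 29.7 at 1 hr and 22, 33.6 and 21.8 at 2 hr. The dimmer Chrm2 probe set (J03025_at) read 3.1 to 22.6.

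Chrm3, also Gq-coupled and known from glands and smooth muscle, read 103.1 to 279.3 on M16407_at. On AB017656_s_at it read 18.2 and 21.6 at 1 hr, below the 27.3, 33.4 and 24.7 of controls (-0.51, SE 0.423). Chrm4, the Gi-coupled receptor of striatal neurons, read 44, 60 and 28.3 at 2 hr and 7.4 and 40.4 at 1 hr on M16409_at (1.14, SE 0.701), with 41.9, 35.6 and 17.7 in controls. The low array was 1 hr replicate 1, and the brighter probe set of the gene (Z49748exon_at) read 86.2 there. Chrm5, found on dopaminergic neurons, read 13.5 to 98.4.

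The dopamine receptors gave 8 probe sets for 5 genes, of which 7 were tested. Drd1 encodes the Gs-coupled receptor of the direct striatal pathway. Its probe set S46131mRNA_s_at read 20.4, 51.6 and 193.3 in controls, 45.7 and 30.8 at 1 hr and 36, 121 and 35.9 at 2 hr. The highest arrays, control replicate 3 and 2 hr replicate 2, also had the highest striatal marker sums, 4132.3 and 1637.7. Over the 8 arrays Pearson's r with the striatal sum was 0.94 (exact permutation p = 0.00248, 0.0174 after Benjamini-Hochberg adjustment over 7 dopamine probe sets). Spearman's rho was 0.88 (exact permutation p = 0.00724, adjusted 0.0507). Without those 2 arrays r was 0.67. The log2 change at 2 hr was -0.13 with all arrays, 0.15 without both, 0.73 without control replicate 3 and -0.71 without 2 hr replicate 2. For the other 6 probe sets the adjusted p of Pearson's r was at least 0.479. Drd1 M35077_s_at, a dimmer probe set, read 19.3 and 18.1 at 1 hr and 9.6, 4.1 and 15.2 in controls (0.77, SE 0.413), with 8.9, 17.7 and 18.6 at 2 hr. The third, S46131mRNA_r_at, read 4, 1.7 and 44.4 in controls, 44.8 and 1.9 at 1 hr and 9.4, 1.7 and 1.9 at 2 hr. Of the 3 Drd1 probe sets, S46131mRNA_r_at was thus under the floor on 2 hr replicate 2, and high on control replicate 3 and 1 hr replicate 1. M35077_s_at was highest on 1 hr replicate 1, where the striatal sum was 1101.7. Pearson's r with the striatal sum was 0.70 for S46131mRNA_r_at and 0.42 for M35077_s_at. Without control replicate 3 and 2 hr replicate 2 it was 0.78 and 0.54.

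Drd2, the Gi-coupled receptor of the indirect striatal pathway and of pituitary lactotrophs, was high on 1 array. Its probe set (X56065_s_at) read 17.6, 8.7 and 14.8 in controls, 15.5 and 27.5 at 1 hr and 8.9, 124.1 and 8.7 at 2 hr. Its highest readings, on 2 hr replicate 2 and 1 hr replicate 2, fell on the arrays with the highest sums of 5 pituitary markers, 849.7 and 498.2. On 2 hr replicate 2 the sum came mostly from Cga (594.1) and Pomc (137.5). Prl, the lactotroph hormone, read 13.6 there, and Gh1 read 22.7, its lowest of the 8 arrays. On 1 hr replicate 2 Prl read 51 and Gh1 156.5, the highest of each. Pomc read 102.5 there, so its highest readings fell on the same 2 arrays as those of Drd2. On control replicate 3, the array of highest striatal markers, Drd2 read 14.8. The pairing of Drd2 with the pituitary markers was noticed after the values were seen and is a description. The part of pituitary tissue in the Drd2 readings was not tested. The log2 change at 2 hr was 0.71 (SE 0.899), and -0.55 without 2 hr replicate 2.

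**Figure D4:**
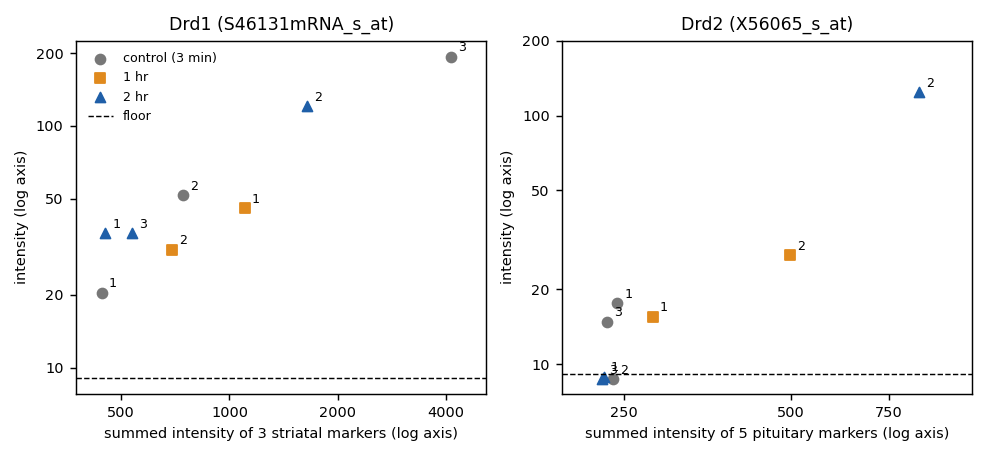
Left, intensity of Drd1 (S46131mRNA_s_at) against the summed intensity of 3 striatal markers. Right, intensity of Drd2 against the summed intensity of 5 pituitary markers, with 1 point for each array, numbered by replicate, and log axes. The highest Drd1 points are control 3 and 2 hr 2, and the highest Drd2 points are 2 hr 2 and 1 hr 2.

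Of the other dopamine receptors, Drd3 (X53944_at), the Gi-coupled receptor of the nucleus accumbens, had the smallest spread. It read 344.7, 353.5 and 399.5 in controls, 529.2 and 355.4 at 1 hr and 414.2, 432.3 and 372.9 at 2 hr. Its second probe set (A17753cds_s_at) was at 2.4 to 4.7 on all 8 arrays, under the floor, so the probe sets of this gene did not give the same account of it. Drd4, which is Gi-coupled, read 10.8 and 30.2 at 1 hr, against 25.6, 32 and 47 in controls (-0.90, SE 0.598). Drd5, the Gs-coupled relative of Drd1, read 61.6 to 122.3.

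The adrenergic receptors gave 11 probe sets for 8 genes, with 9 above the floor on all arrays. With each gene read by its brightest probe set, Adra1a, a Gq-coupled receptor of cortex and smooth muscle, had the largest spread. It read 10.8, 37.6 and 74.4 in controls, 14.4 and 15 at 1 hr and 48.8, 20 and 38.5 at 2 hr (U13368_at). The 1 hr arrays lay below all 2 hr arrays but within the range of controls, with log2 changes of 1.19 for 2 hr against 1 hr (SE 0.762) and -1.08 for 1 hr against control (SE 0.762). Adra2b, the Gi-coupled receptor known from thalamus, had the smallest spread, at 62.7, 78.8 and 59.2 in controls, 94.5 and 53.3 at 1 hr and 58.8, 77.6 and 65.8 at 2 hr.

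Adra2a encodes the Gi-coupled autoreceptor of locus coeruleus neurons through which dexmedetomidine sedates. Its dimmest probe set (M62372cds_s_at) read 8.8, 12.6 and 12.6 at 2 hr, below the 15.4 and 21.6 at 1 hr (-0.69, SE 0.340), with 15.9, 11.1 and 12.6 in controls. The brightest (S79778mRNA_s_at) read 89.5, 133.5 and 49.5 at 2 hr and 66.9 and 105.3 at 1 hr, and the groups overlapped. Adra2c, Gi-coupled and known from striatum, read 59.7, 57.4 and 66.6 in controls, 31.8 and 61.2 at 1 hr and 59.7, 76.3 and 69.5 at 2 hr. Its log2 change for 2 hr against 1 hr was 0.63 (SE 0.416). Among the others, Adra1b read 43.7 to 161.2 and the brighter Adra1d probe set 99.6 to 172.2. The dimmer Adra1d probe set (M60654_at) read 6.4 to 123.3, with a larger log2 SD over the arrays than Adra1a (1.18 against 0.99). Adrb1, the Gs-coupled cardiac type, read 14.7 to 95.2 and Adrb3, the adipose type, 69.5 to 143.5.

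Histamine receptors were near background. Hrh1, the Gq-coupled target of sedating antihistamines, exceeded the floor only on 1 hr replicate 1, at 33.4. Hrh2, the Gs-coupled gastric and cortical type, read 17.7, 8.5 and 31.2 at 2 hr and 11.1, 9.6 and 13.1 in controls, with 12.4 and 13.4 at 1 hr (S57565cds_at). Its log2 change at 2 hr was 0.62 (SE 0.427), and 0.18 without 2 hr replicate 3.

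Of 12 receptor genes with several probe sets tested, 4 had all probe sets in the same direction at 2 hr against control, 6 at 1 hr against control and 6 at 2 hr against 1 hr. Enzymes and transporters that make, release and clear the same transmitters were set beside the receptors. Of 20 such genes, 17 were on the array and 13 were tested, and 0 passed limma's test in either direction in any comparison. At an unadjusted p under 0.05 there was 1, at 1 hr against control, where the share over all probe sets was 2.68%. This was Ddc, the decarboxylase that makes dopamine and serotonin, with a log2 change of 0.69 (SE 0.289, limma unadjusted p = 0.0389). Ddc read 6.7, 7.6 and 9.3 in controls, near or under the floor, and 14.6 and 15 at 1 hr, so the size of its change depends on the floor. Of the 13, 8 read higher and 5 lower at 2 hr against control, against 52.1% higher over all probe sets. The counts were 10 and 3 at 1 hr against control, against 55.8% higher over all, and 6 and 7 at 2 hr against 1 hr, against 52.6% lower over all.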

How the data were processed

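Total RNA of whole brain was measured on 8 single-colour oligonucleotide arrays, in groups of 3 (control), 2 (1 hr) and 3 (2 hr) taken from the labels. The authors deposited 1 linear intensity for each of 8799 probe sets per array, and the deposited values have 2% trimmed means between 150.165 and 150.325. The sources used here do not name the scaling software, and no detection calls were used. The intensities were used as deposited, given a floor of 9.1 (20th percentile over all arrays) and log2 transformed. After 59 control probe sets were left out, 7770 of 8740 exceeded the floor on at least 2 arrays and 970 did not. Each comparison was fitted with limma 3.58.1 in R 4.3.3 (a linear model per probe set and eBayes moderation with a trend on intensity, two-sided) over all 8 arrays, with 1 mean per exposure, Benjamini-Hochberg adjustment over 7770 and a threshold of 0.05. The fit was tested on simulated data.

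Probe sets were named from the platform's annotation. Of the non-control probe sets, 7006 had 1 symbol, 308 several and 1426 none, and all 68 receptor symbols equalled the RefSeq symbol of their gene number. The receptors, gene lists and tests were chosen with earlier results of these data known. Named genes were, per comparison and direction, the 5 receptor probe sets with the smallest unadjusted p, and, per transmitter, the genes of largest and smallest SD among those whose brightest probe set was above the floor on all 8 arrays. Other members are given by ranges or values without a test. No change passed the threshold, so all values are described as readings. Correlations between arrays over the 7770 probe sets tested, on floored log2 values, were 0.876 to 0.970. No 2 arrays were copies, and at most 70 probe sets held identical values in a pair. Alternatives were other floors, scalings, filters and fits, a replicate block, array blocks and leaving out arrays. Without detection calls and counts, no interval was given for a single intensity.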

Additional observations from a re-analysis of the deposited data

How the results depend on the processing

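No receptor probe set passed the adjusted threshold in any comparison under any of 22 alternative settings (smallest adjusted p 0.145). With no filter on dim probe sets, 4 of 8740 probe sets passed for 1 hr against control and 4 for 2 hr against 1 hr, none of them a receptor. In settings that kept both 1 hr arrays, receptors with an unadjusted limma p under 0.05 numbered 0 to 4 for 2 hr against control. They numbered 0 to 4 for 1 hr against control and 0 to 3 for 2 hr against 1 hr. The shares over all probe sets were not counted under these settings, so the counts cannot show an excess among receptors. Of 30 single-gene results, 26 kept their direction under every setting that gave them a value (20 to 22 of the 22). Some settings cannot change a direction, such as fitting without the intensity trend or leaving out an array outside the comparison. The results were also picked for small p from these same arrays, so this count does not measure how stable they are. Deviations of same-numbered arrays gave r of -0.33 to 0.29 over 7 pairs, against -0.36 to 0.40 over the 14 other pairs. The 1 hr group has 2 arrays, whose deviations from their mean are mirror images. Control replicate 1 thus gave r of -0.33 with 1 hr replicate 1 and 0.33 with 1 hr replicate 2. With groups this small, the check cannot decide whether the numbers pair the samples. With the replicate block 0 receptors passed, and the receptor medians were -0.01 (2 hr against control), 0.21 (1 hr against control) and -0.11 (2 hr against 1 hr).

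By definition, about 5% of all values lie at or below a floor at the 5th percentile, and about 40% at or below 1 at the 40th. The receptor share above background was 96.6% in controls, 97.1% at 1 hr and 97.1% at 2 hr with a floor at the 5th percentile, and 51.0%, 58.1% and 55.4% at the 40th percentile. Above the 75th percentile of the antisense controls it was 51.5%, 39.0% and 38.7%, against 57.2%, 50.4% and 49.7% of all probe sets, with 11.8% on 2 hr replicate 3, where that percentile was 82.8. With the brightest probe set of each gene it was 88.2%, 92.7% and 87.5%, in the same order. The receptor median for 1 hr against control ran from -0.10 (without 1 hr replicate 1) to 0.31 when single arrays were left out. Against 0.20 as reported, it was 0.036 with the 5S reading as a block, 0.11 with the top-value arrays as a block, -0.012 without those 3 arrays, 0.076 after quantile normalization and 0.081 after median centring. That for 2 hr against 1 hr was 0.13 without the 3 arrays with a top value above 20000. Reversed were Htr7 at 1 hr against control (-0.22 without those 3 arrays, -0.0797 to 2.09 with single arrays left out), Drd4 at 1 hr against control (0.0774 without those 3 arrays) and Chrnb1 at 2 hr against 1 hr (-0.12 to 2.06 with single arrays left out). Chrna7 (S53987_at) at 2 hr against 1 hr was -0.0571 without 1 hr replicate 2 and 2 hr replicate 2. This setting, and that without the arrays of highest striatal markers, was chosen after seeing the data. Apart from the fewer arrays, the cause was not tested. Leaving out a 1 hr array leaves 1, assumed to vary like the other groups. Readings near the floor limit what the arrays can show for serotonin, dopamine and histamine receptors. The limit extends to the other transmitters, since only 7 of the 68 probe sets were above the 75th percentile of the antisense controls on all 8 arrays.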

Other observations

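Several receptor genes are neighbours in the RefSeq gene order of GRCr8. Chrna5, Chrna3 and Chrnb4 lie side by side with 0 protein-coding genes between them, as do Chrna6 and Chrnb3, and Chrnd and Chrng. Drd1 and Hrh2 are separated by 2 protein-coding genes, and Htr3a and Drd2 by 5. The neighbours Chrna6 and Chrnb3 were high on different arrays, Chrna6 on control replicate 3 (46.7) and Chrnb3 on 1 hr replicate 1 (50.2).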
